A study of Mus musculus with 12 samples.

Results

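The genes of glycolysis and the pentose phosphate pathway were examined in 12 subcutaneous tumors grown from the KCip53-1 line. The members were chosen by name from the annotation, with earlier results of these data known, and comprised 33 of the 22630 genes listed for each tumor. They cover glucose uptake (1 gene), the hexokinases (3), the enzymes of upper glycolysis (7), the enzymes that set fructose 2,6-bisphosphate together with Fbp1 (5), lower glycolysis (6), lactate production and export (4), and the oxidative (3) and non-oxidative (4) branches of the pentose phosphate pathway. Pyruvate kinase Pkm is listed under its older name Pkm2. All 33 passed the filter on low counts.

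The line was made from a primary pancreatic tumor of a KCip53 mouse, in which Ptf1a-Cre switches on the R26 rtTa transactivator in pancreatic epithelium. Every group carries the alleles of this line, and doxycycline (dox) adds expression of TREp53R270H, a transgene for a missense mutant of p53. Tumors grew from 500000 cells each in immunocompromised NSG mice, aged 8 to 10 weeks and carrying 2 tumors apiece. No-dox mice (4 tumors) were never given dox. Plus-dox mice (4 tumors) drank dox at 0.2 g/l in 5% sucrose for 36 days, and off-dox mice (4 tumors) received the same water for 33 days before 3 days without dox. These times come from the sample labels, while the study's text places dox removal at the time when tumors could be felt, so the length of removal is uncertain. RNA came from whole unsorted tumors of 1 line, so that all groups share a single tumor of origin and each tumor holds host cells as well. Sucrose is stated only for the dox water, so dox and sucrose cannot be told apart here. The tumors that shared a mouse are not given, and p-values, which take every tumor as independent, are too small where tumors of a group came from 1 mouse.

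Glycolysis splits glucose into pyruvate in the cytosol and yields ATP and NADH. Many tumors run it at a high rate and export the product as lactate, and pancreatic cancers are known for high glucose uptake. The oxidative branch makes NADPH and ribulose 5-phosphate from glucose 6-phosphate, whereas the non-oxidative branch interconverts pentose phosphates with glycolytic intermediates and can make ribose without making NADPH.

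Counted reads per tumor ran from 19845923 to 33137609, and member counts from 59 (Pfkfb1) upward. The share of mapped reads that fell on genes was 88.4% to 89.4% in no-dox, 82.2% to 87.1% in plus-dox and 81.1% to 85.8% in off-dox tumors. RPKM (the study's normalised read count, per kilobase of exon and per total of mapped reads) divides by all mapped reads. The test scales by counted reads and a normalization factor for each tumor (TMM), so the 2 scales differ slightly between groups. In the first principal component over 14548 genes (49.8% of the variance), plus-dox tumor 2 scored 102 and off-dox tumor 4 scored 66.9, apart from the other 10 tumors at -43.5 to 6.23. Eno2, Tkt, Taldo1, Rpe, Hk3, Pfkm and Pfkfb4 are given without this pair as well. Trp53, the gene from which the transgene derives, had 40.1 to 57.4 RPKM in no-dox, 40.4 to 56.0 RPKM in plus-dox and 41.6 to 45.4 RPKM in off-dox tumors, so that the induced transgene was not visible in the level of the gene and the values do not check the labels. The keratins Krt8, Krt18 and Krt19 had over 98 RPKM in all 12 tumors. Other epithelial markers were low in plus-dox tumor 2, where Epcam had 7.76 RPKM against 40.9 to 388 RPKM elsewhere and Elf3 2.67 RPKM against 12.2 to 83.7 RPKM, and Cldn7 was at most 7.65 RPKM in any tumor. Macrophage and fibroblast markers were present throughout.

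Most of glycolysis was carried by abundant transcripts whose levels overlapped between the groups, whereas 3 of the 4 genes of the non-oxidative pentose phosphate branch, Rpe, Tkt and Taldo1, were lower in every dox-exposed tumor than in every no-dox tumor, as were 2.02% of all genes. Dox-exposed means the 8 plus-dox and off-dox tumors together. Among glycolytic genes Eno2, a minor enolase, was the single member called, at 0.90 ± 0.24 (log2 fold change ± standard error) in dox-exposed against no-dox tumors, where 0.860% of all genes were called. Between off-dox and plus-dox tumors no member reached an unadjusted p under 0.05. In the terms used here a gene was called with an adjusted p under 0.1 in edgeR's quasi-likelihood test, a change over 1.5-fold, a mean over 0.25 RPKM and a length over 250 bp, and adjusted p-values are over all 17561 genes tested.

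**Figure D1:**
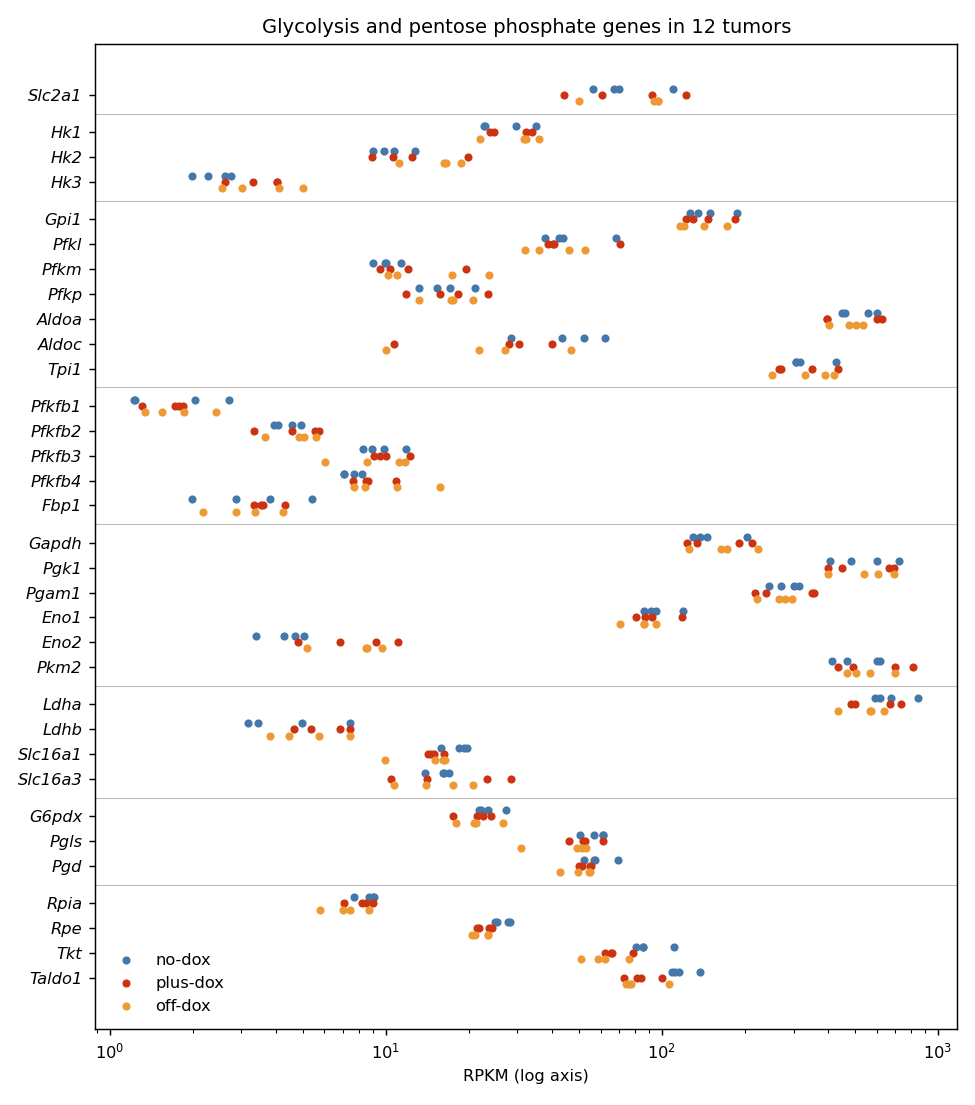
RPKM of the 33 members on a log axis, 1 point per tumor colored by group, with genes in pathway order and lines between the roles. Ldha, Pkm2, Pgk1 and Aldoa lie highest, with means above 500 RPKM, and the groups are separated only for Rpe, Tkt, Taldo1 and, between no-dox and off-dox, Eno2.

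Slc2a1 encodes GLUT1, the glucose transporter of most cells. Its level was 75.6 ± 23.4 RPKM in no-dox, 79.8 ± 34.4 RPKM in plus-dox and 84.6 ± 23.0 RPKM in off-dox tumors (mean ± SD, n = 4 in each group throughout), with a range of 44.4 to 122 RPKM over the 12 tumors. The groups overlapped, and the spread within plus-dox covered that of all other tumors.

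Hexokinases trap glucose as glucose 6-phosphate, the branch point to both pathways. Hk1, the broadly expressed form, was the most abundant of the 3, with 22.7, 29.6, 22.8 and 34.9 RPKM in no-dox tumors 1 to 4, 23.8, 32.3, 33.9 and 24.7 RPKM in plus-dox tumors 1 to 4, and 31.6, 32.3, 21.9 and 35.8 RPKM in off-dox tumors 1 to 4. The groups overlapped fully, and Hk1 made up 57.5% to 70.3% of the summed RPKM of the 3 genes in each tumor. Hk2, the insulin- and hypoxia-responsive form found in many tumors, had 9.02, 10.8, 9.88 and 12.8 RPKM in no-dox tumors 1 to 4, 8.95, 10.6, 19.8 and 12.4 RPKM in plus-dox tumors 1 to 4, and 16.3, 18.8, 11.2 and 16.5 RPKM in off-dox tumors 1 to 4. Off-dox tumors 1, 2 and 4 lay above all no-dox tumors and off-dox tumor 3 lay among them. In off-dox against no-dox tumors the Hk2 difference was 0.59 ± 0.25 on the log2 scale, which did not pass the adjusted test (edgeR, adjusted p = 0.217).

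Hk3, a form known mainly from white blood cells, was low, with 2.61, 2.75, 2.27 and 2.0 RPKM in no-dox tumors 1 to 4, 2.63, 4.05, 4.03 and 3.32 RPKM in plus-dox tumors 1 to 4, and 2.56, 4.12, 5.00 and 3.03 RPKM in off-dox tumors 1 to 4. In each of the dox groups 3 tumors exceeded the highest no-dox tumor, that is plus-dox tumors 2 to 4 and off-dox tumors 2 to 4. The log2 difference from no-dox was 0.57 ± 0.22 in plus-dox (edgeR, adjusted p = 0.334) and 0.64 ± 0.22 in off-dox tumors (adjusted p = 0.146), neither of which passed. Over all dox-exposed tumors it was 0.61 ± 0.19 (adjusted p = 0.125). Without plus-dox tumor 1 or off-dox tumor 1 Hk3 did pass as a call in dox-exposed tumors, with adjusted p-values of 0.0805 and 0.0602 (edgeR), and without plus-dox tumor 2 and off-dox tumor 4 together it was 0.60 ± 0.20 (adjusted p = 0.125).

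Gpi1 turns glucose 6-phosphate into fructose 6-phosphate and had 149.7 ± 26.3 RPKM in no-dox, 146 ± 27.3 RPKM in plus-dox and 138 ± 25.5 RPKM in off-dox tumors. Phosphofructokinase commits this sugar to glycolysis. Pfkl, its liver-type and here most abundant subunit, had 42.3, 43.8, 37.9 and 68.0 RPKM in no-dox tumors 1 to 4, 38.7, 40.3, 70.4 and 40.8 RPKM in plus-dox tumors 1 to 4, and 52.6, 46.1, 35.8 and 32.0 RPKM in off-dox tumors 1 to 4, and no group stood apart. Pfkm, the muscle subunit, had 11.3, 10.0, 9.94 and 8.99 RPKM in no-dox tumors 1 to 4, 12.1, 19.5, 9.57 and 10.4 RPKM in plus-dox tumors 1 to 4, and 10.2, 17.3, 23.7 and 11 RPKM in off-dox tumors 1 to 4. Plus-dox tumor 2 and off-dox tumors 2 and 3 were high and the remaining 9 tumors lay close together. The off-dox difference of Pfkm from no-dox was 0.65 ± 0.27 (edgeR, adjusted p = 0.207), and Pfkm did not pass. Without plus-dox tumor 2 and off-dox tumor 4 it did, at 0.78 ± 0.22 (adjusted p = 0.084), and without off-dox tumor 3 it was 0.39 ± 0.25 (adjusted p = 0.456). Pfkp, the platelet subunit, had 16.7 ± 3.35 RPKM in no-dox, 17.3 ± 4.85 RPKM in plus-dox and 17.1 ± 3.07 RPKM in off-dox tumors.

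Aldolase splits fructose 1,6-bisphosphate. Aldoa, with 87.8% to 98.2% of the summed RPKM of Aldoa and Aldoc, had 462, 447, 556 and 602 RPKM in no-dox tumors 1 to 4, 396, 600.2, 628 and 398 RPKM in plus-dox tumors 1 to 4, and 537, 505, 475 and 402 RPKM in off-dox tumors 1 to 4. The groups overlapped. Aldoc, the form best known from brain, varied most of all members, 6.19-fold from 10.1 to 62.3 RPKM, with 46.6 ± 14.4 RPKM in no-dox, 27.2 ± 12.2 RPKM in plus-dox and 26.4 ± 15.3 RPKM in off-dox tumors. It did not pass in any comparison. Tpi1, which interconverts the 2 triose phosphates, had 339 ± 59.4 RPKM in no-dox, 329.9 ± 80.5 RPKM in plus-dox and 348 ± 75.2 RPKM in off-dox tumors.

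The PFKFB enzymes make and break fructose 2,6-bisphosphate, the strongest activator of phosphofructokinase. Pfkfb3, the form with the most kinase over phosphatase activity, had 8.25, 9.88, 8.89 and 11.8 RPKM in no-dox tumors 1 to 4, 9.98, 9.07, 12.2 and 9.56 RPKM in plus-dox tumors 1 to 4, and 11.7, 11.2, 8.58 and 6.05 RPKM in off-dox tumors 1 to 4, and Pfkfb4 had 7.69, 7.08, 8.19 and 7.04 RPKM in no-dox tumors 1 to 4, 7.59, 10.9, 8.47 and 8.62 RPKM in plus-dox tumors 1 to 4, and 7.70, 8.41, 11 and 15.7 RPKM in off-dox tumors 1 to 4. Both overlapped between groups, and off-dox tumor 4 held the lowest Pfkfb3 and the highest Pfkfb4 of all tumors. For Pfkfb4 the off-dox difference from no-dox was 0.55 ± 0.21 (edgeR, adjusted p = 0.184). Off-dox tumor 4 set much of it, since without that tumor it was 0.28 ± 0.16 (adjusted p = 0.364), and without both plus-dox tumor 2 and off-dox tumor 4 it was 0.28 ± 0.14 (adjusted p = 0.246). Without off-dox tumor 1 it was 0.68 ± 0.21 (adjusted p = 0.0835). Pfkfb2 ranged over 3.33 to 5.75 RPKM and Pfkfb1 over 1.23 to 2.70 RPKM. Fbp1, which reverses the phosphofructokinase step in gluconeogenesis, had 1.99 to 5.39 RPKM. None of these 3 reached an unadjusted p under 0.05 in any comparison.

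Lower glycolysis harvests ATP and NADH. Gapdh, which makes the NADH, had 154 ± 33.5 RPKM in no-dox, 165 ± 42.8 RPKM in plus-dox and 171 ± 39.9 RPKM in off-dox tumors. Pgk1, which makes the first ATP, had 554 ± 137 RPKM in no-dox, 552 ± 149 RPKM in plus-dox and 559.7 ± 123 RPKM in off-dox tumors. Pgam1, the mutase that follows, had 282 ± 31.9 RPKM in no-dox, 290.0 ± 72.4 RPKM in plus-dox and 265 ± 31.9 RPKM in off-dox tumors, and Pkm2, the last step to pyruvate, had 524 ± 99.5 RPKM in no-dox, 608 ± 175 RPKM in plus-dox and 559.9 ± 101 RPKM in off-dox tumors. None of these 4 passed in any comparison, and their largest log2 difference from no-dox was 0.23, for Pkm2 in plus-dox tumors. Gene-level counts do not separate the M1 and M2 splice forms of pyruvate kinase. Gapdh, Eno1, Pgam1 and Ldha have near-identical processed copies elsewhere in the mouse genome, and how reads with several positions were handled is not stated, so their levels are uncertain relative to other genes.

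Enolase makes phosphoenolpyruvate. Eno1, the common form, had 86.4, 91.4, 95.0 and 119.7 RPKM in no-dox tumors 1 to 4, 80.8, 92.4, 118 and 87.1 RPKM in plus-dox tumors 1 to 4, and 95.0, 86.5, 70.8 and 86.3 RPKM in off-dox tumors 1 to 4, and the groups overlapped. Eno2, the enolase known from neurons and neuroendocrine cells and also a hypoxia-responsive gene, had 5.04, 3.38, 4.69 and 4.27 RPKM in no-dox tumors 1 to 4, 4.80, 9.23, 11 and 6.85 RPKM in plus-dox tumors 1 to 4, and 8.52, 9.69, 8.58 and 5.18 RPKM in off-dox tumors 1 to 4. All 4 off-dox tumors lay above all 4 no-dox tumors, while plus-dox tumor 1 lay below the highest no-dox tumor. Eno2 in the 8 dox-exposed tumors ranged from 4.80 to 11 RPKM with a median of 8.55 RPKM. It rose in dox-exposed tumors by 0.90 ± 0.24 on the log2 scale, 1.87-fold (edgeR, adjusted p = 0.0938). The separate differences from no-dox were 0.90 ± 0.27 in plus-dox (adjusted p = 0.322) and 0.90 ± 0.27 in off-dox tumors (adjusted p = 0.114), neither past the limit. The call in dox-exposed tumors remained without plus-dox tumor 1 (edgeR, adjusted p = 0.0603) or off-dox tumor 1 (adjusted p = 0.0751), and was lost when any 1 of the other 10 tumors was left out, with adjusted p-values from 0.102 to 0.213. Without plus-dox tumor 2 and off-dox tumor 4 together it was 0.94 ± 0.22 (adjusted p = 0.0811). Eno2 made up 3.45% to 5.51% of the summed RPKM of Eno1 and Eno2 in no-dox, 5.61% to 9.08% in plus-dox and 5.67% to 10.8% in off-dox tumors. With the muscle enolase Eno3 in the sum the shares were 2.77% to 3.87%, 3.84% to 7.15% and 3.37% to 7.43%, and plus-dox tumor 2 and off-dox tumor 4 lay below the highest no-dox tumor.

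Lactate dehydrogenase A, which reduces pyruvate to lactate, was the most abundant member on average. Ldha had 614, 594, 848 and 676 RPKM in no-dox tumors 1 to 4, 483, 735, 671 and 502 RPKM in plus-dox tumors 1 to 4, and 571, 569, 433 and 638 RPKM in off-dox tumors 1 to 4. The groups overlapped, and Ldha made up 98.3% to 99.5% of the summed RPKM of Ldha and Ldhb in each tumor. Ldhb, the form that favors pyruvate, had 4.76 ± 1.96 RPKM in no-dox, 6.07 ± 1.28 RPKM in plus-dox and 5.36 ± 1.59 RPKM in off-dox tumors.

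Lactate leaves cells through the carriers MCT1 (Slc16a1) and MCT4 (Slc16a3), the latter typical of highly glycolytic cells. Slc16a1 had 15.8, 19.7, 18.4 and 19.2 RPKM in no-dox tumors 1 to 4, 14.2, 16.2, 14.9 and 14.6 RPKM in plus-dox tumors 1 to 4, and 16.1, 16.4, 9.96 and 15.1 RPKM in off-dox tumors 1 to 4. No-dox tumors 2 to 4 lay above every dox-exposed tumor and no-dox tumor 1 lay among them. Over dox-exposed tumors the Slc16a1 difference was -0.30 ± 0.13 (edgeR, adjusted p = 0.215) and did not pass. Slc16a3 had 16.9, 13.9, 16.3 and 16.2 RPKM in no-dox tumors 1 to 4, 10.4, 23.2, 28.5 and 14.2 RPKM in plus-dox tumors 1 to 4, and 20.7, 17.6, 14.0 and 10.8 RPKM in off-dox tumors 1 to 4. Its lowest and its highest value were both in plus-dox tumors.

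The oxidative pentose phosphate branch opens with G6pdx, its rate-limiting NADPH-making dehydrogenase, at 23.7 ± 2.54 RPKM in no-dox, 21.4 ± 2.81 RPKM in plus-dox and 21.7 ± 3.54 RPKM in off-dox tumors. Pgls, the lactonase, had 57.5 ± 5.14 RPKM in no-dox, 52.9 ± 6.22 RPKM in plus-dox and 46.2 ± 10.2 RPKM in off-dox tumors, and Pgd, the second NADPH-making dehydrogenase, had 59.1 ± 7.44 RPKM in no-dox, 53.0 ± 2.69 RPKM in plus-dox and 50.4 ± 5.68 RPKM in off-dox tumors. The fitted differences of these 3 from no-dox were all below 0, between -0.29 and -0.09 on the log2 scale in plus-dox and off-dox tumors, but none reached an unadjusted p under 0.05 and the groups overlapped.

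The non-oxidative branch holds Rpia and Rpe, which turn ribulose 5-phosphate into ribose 5-phosphate and xylulose 5-phosphate, and Tkt and Taldo1, which shuttle 2-carbon and 3-carbon units between these sugars and glycolysis. Rpia had 8.61 ± 0.660 RPKM in no-dox, 8.20 ± 0.826 RPKM in plus-dox and 7.22 ± 1.2 RPKM in off-dox tumors, with overlapping groups. Rpe had 25.3, 27.7, 28.2 and 24.9 RPKM in no-dox tumors 1 to 4, 24.2, 21.7, 21.4 and 23.7 RPKM in plus-dox tumors 1 to 4, and 23.4, 23.5, 21.0 and 20.5 RPKM in off-dox tumors 1 to 4. Every dox-exposed tumor lay below the lowest no-dox tumor. Tkt, at chromosome 14, 31362335 to 31387908 (mm9, plus strand), had 85.2, 111, 80.7 and 85.6 RPKM in no-dox tumors 1 to 4, 78.8, 66.0, 62.4 and 65.2 RPKM in plus-dox tumors 1 to 4, and 76.1, 58.6, 51.0 and 62.1 RPKM in off-dox tumors 1 to 4. Again all 8 dox-exposed tumors were lower than all 4 no-dox tumors, by a narrow margin for plus-dox tumor 1. Taldo1, at chromosome 7, 148578059 to 148588875 (mm9, plus strand), had 115, 137, 111 and 108 RPKM in no-dox tumors 1 to 4, 100.1, 81.0, 72.8 and 84.1 RPKM in plus-dox tumors 1 to 4, and 106, 74.3, 75.9 and 77.6 RPKM in off-dox tumors 1 to 4, and showed the same order, with off-dox tumor 1 closest to the no-dox tumors. The same 3 genes were separated in log2 CPM, which scales by counted reads and the TMM factors.

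The Tkt difference from no-dox was -0.40 ± 0.13 in plus-dox (edgeR, adjusted p = 0.326) and -0.52 ± 0.13 in off-dox tumors (adjusted p = 0.0933). For Taldo1 it was -0.47 ± 0.13 (adjusted p = 0.322) and -0.47 ± 0.13 (adjusted p = 0.0953), and for Rpe -0.21 ± 0.08 (adjusted p = 0.332) and -0.24 ± 0.08 (adjusted p = 0.146). Over all dox-exposed tumors edgeR gave -0.46 ± 0.11 for Tkt (adjusted p = 0.0876), -0.47 ± 0.11 for Taldo1 (adjusted p = 0.0836) and -0.23 ± 0.07 for Rpe (adjusted p = 0.118). Tkt and Taldo1 thus passed the adjusted p limit in off-dox and in dox-exposed tumors but were under the 1.5-fold limit, and were not called.

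The adjusted p of Tkt and Taldo1 depended on single tumors. In off-dox against no-dox it stayed under 0.1 without off-dox tumor 1 (edgeR, adjusted p of 0.0394 for Tkt and 0.0303 for Taldo1), without plus-dox tumor 1 or without plus-dox tumor 2, and reached up to 0.231 without any 1 of the other 9 tumors. In dox-exposed tumors it stayed under 0.1 without plus-dox tumor 1 or off-dox tumor 1 and reached 0.207 for Tkt and 0.201 for Taldo1 otherwise. Without plus-dox tumor 2 and off-dox tumor 4 together it was 0.0924 for Tkt and 0.0874 for Taldo1 in dox-exposed tumors, and 0.0929 and 0.11 in off-dox tumors (edgeR). For Rpe the dox-exposed difference without that pair was -0.21 ± 0.08 (adjusted p = 0.146). The direction was the same in each of these fits, with log2 differences of -0.51 to -0.36 for Tkt and -0.54 to -0.41 for Taldo1 over all dox-exposed tumors.

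**Figure D2:**
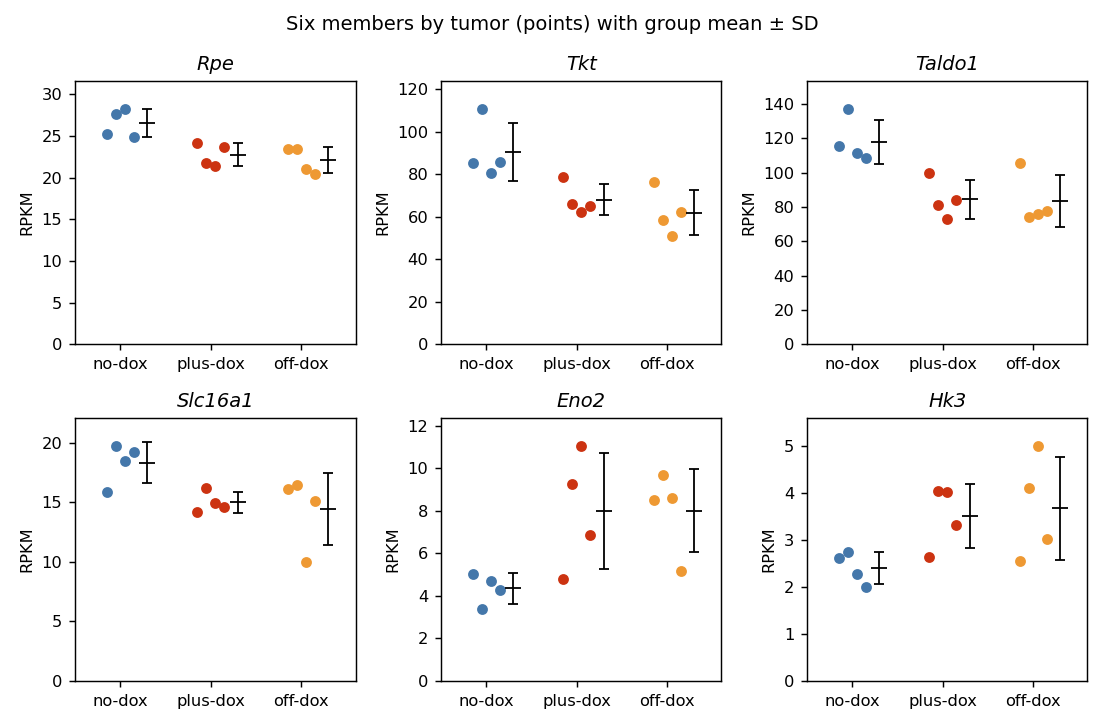
RPKM of 6 members by tumor (points), with the mean and SD of each group of 4 beside them; each axis starts at 0. In the top row Rpe, Tkt and Taldo1 lie lower in all 8 dox-exposed tumors, while Slc16a1, Eno2 and Hk3 in the bottom row overlap between at least 1 pair of groups.

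The promoters of the 3 lower pentose phosphate genes are shown beside that of Ldha, a textbook target of HIF-1 and MYC, because these were the members lower in every dox-exposed tumor, while Ldha carries the letters that were searched. Sequences are the 250 bases before the start in RefSeq promoters of GRCm38.p6, in the direction of transcription. They are taken from chr7:46845554-46845803 for Ldha, chr14:30548881-30549130 for Tkt, chr7:141391910-141392159 for Taldo1 and chr1:66700581-66700830 for Rpe, all on the plus strand. Capitals mark ACGTG, 1 form of the core of the hypoxia response element, read on either strand. The form GCGTG was not searched, and its letters stand in the Tkt and Taldo1 sequences.
Ldha: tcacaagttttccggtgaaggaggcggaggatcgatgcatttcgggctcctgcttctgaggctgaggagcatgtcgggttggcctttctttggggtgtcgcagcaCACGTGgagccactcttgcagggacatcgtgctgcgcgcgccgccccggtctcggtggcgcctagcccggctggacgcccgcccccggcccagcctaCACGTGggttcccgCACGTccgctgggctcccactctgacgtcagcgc
Tkt: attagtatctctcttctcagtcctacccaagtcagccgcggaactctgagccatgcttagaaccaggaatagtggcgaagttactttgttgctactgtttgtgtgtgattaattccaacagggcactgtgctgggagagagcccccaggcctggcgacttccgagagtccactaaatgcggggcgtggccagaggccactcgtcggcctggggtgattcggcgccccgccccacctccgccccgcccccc
Taldo1: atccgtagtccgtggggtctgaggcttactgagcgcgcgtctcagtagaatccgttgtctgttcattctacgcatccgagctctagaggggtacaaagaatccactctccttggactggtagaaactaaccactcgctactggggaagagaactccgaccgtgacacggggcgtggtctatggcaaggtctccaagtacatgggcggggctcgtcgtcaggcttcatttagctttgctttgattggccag
Rpe: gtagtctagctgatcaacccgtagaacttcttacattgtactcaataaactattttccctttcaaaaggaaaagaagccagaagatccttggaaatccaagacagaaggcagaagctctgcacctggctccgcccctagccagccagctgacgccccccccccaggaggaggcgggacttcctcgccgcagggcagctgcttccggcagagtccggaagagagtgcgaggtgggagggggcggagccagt

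Ldha held 5 matches to ACGTG, of which 4 came from 2 copies of the palindromic E-box CACGTG, whose letters contain ACGTG on both strands. A second RefSeq promoter of Ldha, at chr7:46846832-46847081, held no match to either, nor did Tkt, Taldo1 and Rpe. All 33 members matched the promoter table, with 51 promoters among them. ACGTG was found in 33.3% of these 51 promoters and in 16.6% of all 32851 promoters of the same length, and CACGTG in 9.80% and 6.02%. Of the 33 members 13 held ACGTG, all of them in glycolysis or lactate handling (Slc2a1, Hk2, Hk3, Pfkm, Aldoa, Pfkfb2, Pfkfb3, Pgk1, Pgam1, Pkm, Ldha, Slc16a1 and Slc16a3), and none of the 7 pentose phosphate genes did. Of these 7 genes, Pgd had 2 promoters and each of the others 1, too few to compare with the share of all promoters. The 2 matches of Aldoa are the same site, counted in 2 overlapping promoters. A match is a description of the letters and was not tied to binding.

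In plus-dox against no-dox tumors no member was called by edgeR, where 0% of all tested genes were called and 0% passed the adjusted p limit alone. DESeq2 called Eno2, beside 0.512% of all genes with moderated fold changes and 0.729% without. At an unadjusted p under 0.05, 2 members were higher (Hk3 and Eno2), beside 8.00% of all genes, and 3 were lower (Rpe, Tkt and Taldo1), beside 5.67%. No member was higher without overlap, against 4.30% of all genes, and the same 3 were lower without overlap, against 3.46%. The median log2 difference over the 33 members was 0.01, as it was over all genes, with 18 members above 0 and 15 below. By branch, 18 of 26 glycolysis and lactate genes were above 0 and all 7 pentose phosphate genes below, with medians of 0.08 and -0.14. No test was made over the list as a whole.

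Between off-dox and no-dox tumors, which share the no-dox tumors with that comparison, no member was called by edgeR, where 1.34% of all genes were. DESeq2 called Eno2 with moderated fold changes, beside 2.25% of all genes, and Eno2 and Hk3 without, beside 3.5%. Tkt and Taldo1 passed the adjusted p limit alone, as did 3.46% of all genes. At an unadjusted p under 0.05, 5 members were higher (Hk2, Hk3, Pfkm, Pfkfb4 and Eno2), beside 10.9% of all genes, and 3 were lower (Rpe, Tkt and Taldo1), beside 9.48%. Eno2 was higher without overlap, as were 4.99% of all genes, and Rpe, Tkt and Taldo1 lower, as were 6.40%. The median log2 difference was -0.03 over the 33 members and 0.01 over all genes. By branch it was 0.05 for the 26 glycolysis and lactate genes, 16 of them above 0, and -0.24 for the 7 pentose phosphate genes, all below 0. Without off-dox tumor 1, 4 members were called (Hk3, Pfkfb4, Tkt and Taldo1), beside 4.51% of all genes. Without plus-dox tumor 1 it was 1 (Eno2), beside 1.19%, and without plus-dox tumor 2 and off-dox tumor 4 together it was 2 (Pfkm and Eno2), beside 2.72%.

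Off-dox against plus-dox tumors asks whether removal of dox moved the genes. No member was called or passed the adjusted p limit in edgeR, as for 0% and 0% of all genes, and none was called by DESeq2, which called 0.0228% of all genes with moderated fold changes and 0.0342% without. Nor did any reach an unadjusted p under 0.05 (3.06% of all genes did) or separate the groups (1.49% of all genes did). Log2 differences of the members ran from -0.28 (Slc16a3) to 0.29 (Pfkfb4), with a median of -0.03 beside 0.00 over all genes, and those of Tkt, Taldo1, Rpe and Eno2 were -0.12, 0.00, -0.02 and 0.00. A miss of the threshold does not show that the groups were alike.

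Taking all 8 dox-exposed tumors against no-dox, 1 member was called (Eno2), where 0.860% of all genes were, and 3 passed the adjusted p limit (Eno2, Tkt and Taldo1), where 3.42% of all genes did. Without plus-dox tumor 1 and without off-dox tumor 1 the members called were 2 each time (Hk3 and Eno2), beside 2.01% and 2.85% of all genes. Members at an unadjusted p under 0.05 were Hk3 and Eno2 on the higher side, beside 11.1% of all genes, and Slc16a1, Rpe, Tkt and Taldo1 on the lower side, beside 10.5%. No member was higher without overlap, as 1.86% of all genes were, and 3 of 33 were lower without overlap (Rpe, Tkt and Taldo1), as 2.02% of all genes were. The median log2 difference was 0.00 over the members, 16 of them above 0 and 17 below, and 0.01 over all genes.

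**Figure D3:**
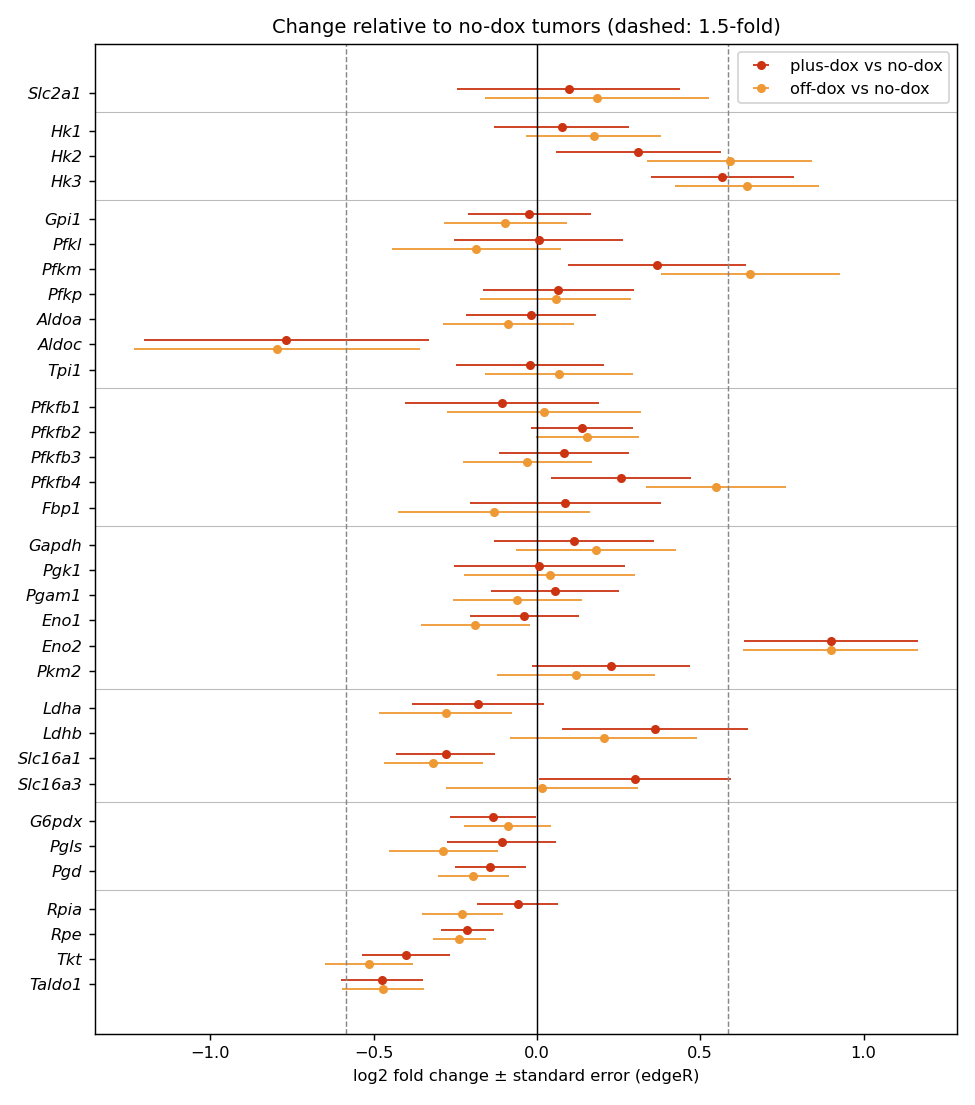
Log2 fold change with its standard error (edgeR) of each member in tumors of the plus-dox and off-dox groups, both relative to the same no-dox tumors, with dashed lines at 1.5-fold. All 7 pentose phosphate genes lie left of 0 in both comparisons, Eno2 lies right of the dashed line in both, and most glycolytic genes have bars that cross or nearly reach 0.

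Levels of the abundant glycolytic genes differed between tumors of 1 group. Of the 10 glycolysis and lactate genes over 50 RPKM on average (Slc2a1, Gpi1, Aldoa, Tpi1, Gapdh, Pgk1, Pgam1, Eno1, Pkm2 and Ldha), all 10 were above their 12-tumor median in no-dox tumor 4, plus-dox tumor 2 and plus-dox tumor 3. None of the 10 was above it in plus-dox tumors 1 and 4 and in off-dox tumor 3. In the other tumors 1 (no-dox 1 and 2), 6 (no-dox 3 and off-dox 1) or 8 (off-dox 2 and 4) of the 10 were above it, and in off-dox tumor 4 the deviations from the mean of the 12 tumors were -0.22 for Gpi1 and -0.23 for Aldoa on the log2 scale against 0.54 for Gapdh and 0.41 for Tpi1. Log2 CPM scales a gene's counts by the total of counted reads and the TMM factor. The median log2 CPM deviation of the 10 genes from that mean ran from -0.37 in plus-dox tumor 1 to 0.43 in plus-dox tumor 3. The widest spread thus lay within 1 group. The pentose phosphate genes did not follow that order. Of these 7, 6 or 7 were above their 12-tumor median in each no-dox tumor, 1 to 3 in plus-dox tumors, and 4, 1, 0 and 3 in off-dox tumors 1 to 4.

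**Figure D4:**
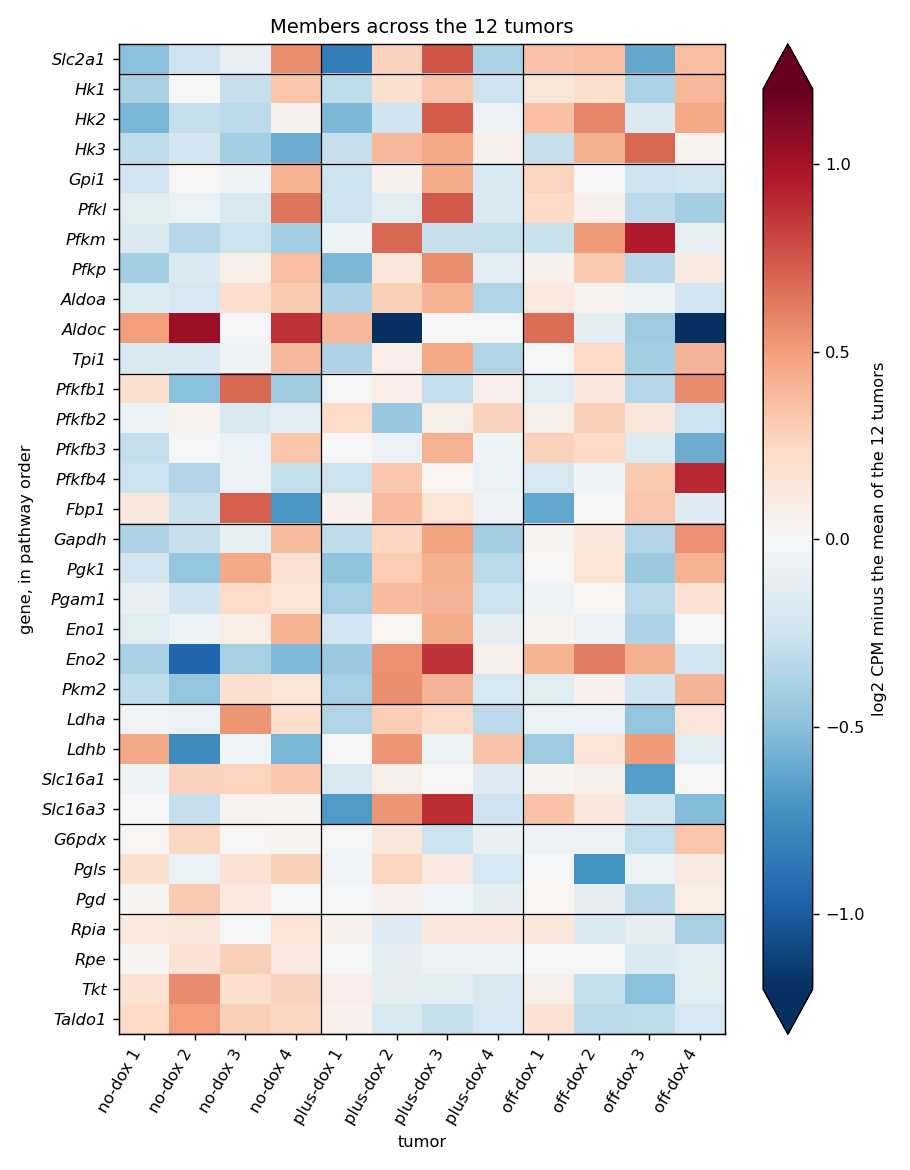
Log2 CPM of each member minus its mean over the 12 tumors, with tumors in columns by group and genes in rows by role; red is above and blue below the mean. Most glycolytic rows are red in plus-dox tumor 3 and blue in plus-dox tumor 1 and off-dox tumor 3. The rows for Tkt and Taldo1 are red in every no-dox column and blue in most dox-exposed columns. They stay above the mean in plus-dox tumor 1 (0.08 for Tkt and 0.05 for Taldo1) and in off-dox tumor 1 (0.07 and 0.17).

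Markers of other cells also varied between tumors. In bulk tumors, fewer cells of a type and less RNA per cell cannot be told apart. The 12 skeletal muscle markers, all above 0 in some tumor, summed to 12.8 to 224 RPKM in no-dox, 182 to 574 RPKM in plus-dox and 14.5 to 1539 RPKM in off-dox tumors. The 3 tumors highest in Pfkm were the 3 highest in this sum, at 574 RPKM (plus-dox tumor 2), 1014 RPKM (off-dox tumor 2) and 1539 RPKM (off-dox tumor 3). At an unadjusted p under 0.05, 2 of 12 muscle markers were higher in plus-dox and 9 of 12 in off-dox tumors. The shares over all genes were 8.00% and 10.9%, and no muscle marker was past the adjusted limit.

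Of the neutrophil markers, 6 of 7 were listed in the files, none of them at 0 throughout. They summed to 23.4 to 35.2 RPKM in no-dox, 34.1 to 57.5 RPKM in plus-dox and 24.0 to 50.0 RPKM in off-dox tumors. Of the 6, Cxcr2, a chemokine receptor, and Csf3r, the G-CSF receptor, were called higher in dox-exposed tumors. The log2 differences were 0.89 ± 0.17 for Cxcr2 and 0.71 ± 0.15 for Csf3r (edgeR, adjusted p = 0.0832 for both). In each dox group tumors 2 and 3 held the most Hk3 and the highest neutrophil sums. Tumor 1 had less Hk3 than tumor 4 but a higher sum, 49.4 against 34.1 RPKM in plus-dox and 43.9 against 24.0 RPKM in off-dox. In mean log2 CPM of the neutrophil markers, plus-dox tumors 2 and 3 stayed highest of their group, at 2.33 and 2.20. In off-dox, tumor 1, with the least Hk3 of its group, was highest (2.26), and tumor 3, with the most, had 1.83. Macrophage markers (9 of 10 listed) summed highest, at 4171 RPKM, in off-dox tumor 3, the tumor with the most Hk3. Epithelial markers (10 of 10 listed, none at 0 throughout) summed to 2678 to 3541 RPKM in no-dox, 1413 to 2274 RPKM in plus-dox and 1210 to 3016 RPKM in off-dox tumors. Krt8 and Krt18, the most abundant of them, weigh most in this sum. In mean log2 CPM the groups overlapped, at 7.69 to 8.55 in no-dox, 5.26 to 8.11 in plus-dox and 6.59 to 8.27 in off-dox tumors. At an unadjusted p under 0.05, 1 of 10 was lower in plus-dox, 1 in off-dox and 3 in dox-exposed tumors. The shares over all genes were 5.67%, 9.48% and 10.5%. Among the 10, Krt8 was called lower in dox-exposed tumors (-0.74 ± 0.19, edgeR, adjusted p = 0.0876). Of 12 fibroblast markers, 6 were higher in plus-dox than in no-dox tumors at an unadjusted p under 0.05, beside 8.00% of all genes. In off-dox against plus-dox tumors 5 were lower, beside 318 of 17561 genes. None passed the adjusted limit. The sums were 1333 to 2324 RPKM in no-dox, 1865 to 3445 RPKM in plus-dox and 1541 to 1791 RPKM in off-dox tumors. T and NK cell markers (8 of 8 listed) summed to 3.64 to 5.38, 6.86 to 8.33 and 5.64 to 13.7 RPKM in these groups. Nkg7 was called higher in off-dox and in dox-exposed tumors and Cd4 in off-dox tumors. The hosts were immunocompromised, and levels were low. Cd3e, Cd3d and Cd8a had at most 0.149, 0.321 and 0.195 RPKM and Nkg7 at most 1.11 RPKM in any tumor. Whether these transcripts came from T or NK cells was not tested. Off-dox tumor 1, the dox-exposed tumor with the most Taldo1, also had the highest epithelial sum of the 8. Plus-dox tumor 3, with the least Taldo1 of all 12 tumors (72.8 RPKM), had the highest epithelial sum of the plus-dox tumors (2274 RPKM). The part of these cell types in the differences of Pfkm, Hk3, Aldoc, Tkt, Taldo1 and Rpe was not tested.

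**Figure D5:**
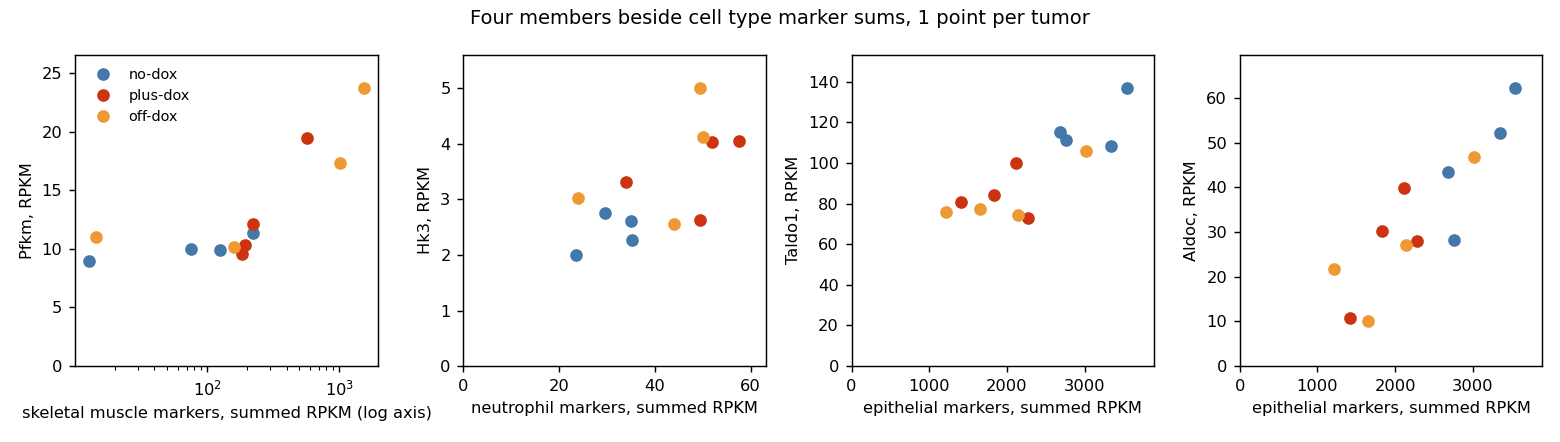
RPKM of Pfkm, Hk3, Taldo1 and Aldoc (vertical axes) against the summed RPKM of skeletal muscle (log axis), neutrophil and epithelial markers, with 1 point per tumor colored by group. High Pfkm sits with high muscle sums, and the no-dox tumors, highest in Taldo1, also hold most of the high epithelial sums. Plus-dox tumor 3, lowest in Taldo1, has the highest epithelial sum of its group.

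Hypoxia response genes outside the members (13 of 14 listed, among them Car9 and Vegfa) summed to 666 to 1055 RPKM in no-dox, 587 to 1034 RPKM in plus-dox and 605 to 982 RPKM in off-dox tumors. No-dox tumor 4 and plus-dox tumor 3, with high glycolytic genes, had the highest sums. In mean log2 CPM plus-dox tumor 3 was highest (7.59), followed by off-dox tumor 2 (7.41) and no-dox tumor 4 (7.37). Off-dox tumor 4, with 8 of the 10 abundant genes above their median, had the lowest sum of its group (605 RPKM). Off-dox tumor 1, with 6 of them above, had 970 RPKM. Plus-dox tumor 2, with all 10 abundant genes above their median, had a sum of 615 RPKM, but its hypoxia genes did not move together. In that tumor Car9 (9.59 RPKM), Egln3 (34.8 RPKM) and Kdm3a (16.0 RPKM) were the lowest of all tumors. Adm (20.5 RPKM) and Mxi1 (13.1 RPKM) were the highest there. The mean log2 CPM of the hypoxia genes in plus-dox tumor 2 was 6.80, within the no-dox range of 6.75 to 7.37. Of the 13, none in plus-dox, 2 in off-dox and 1 in dox-exposed tumors were higher at an unadjusted p under 0.05. The shares over all genes were 8.00%, 10.9% and 11.1%.

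Of 34 other genes of the pathway (further transporters, tissue isoforms, chaperones and regulators), 31 were tested and none passed the adjusted p limit in any comparison. At an unadjusted p under 0.05, 3 were higher and 1 lower in plus-dox tumors, beside 8.00% and 5.67% of all genes. In off-dox tumors 2 were higher, beside 10.9%. In dox-exposed tumors 3 were higher and 2 lower, beside 11.1% and 10.5%. Slc2a3, the high-affinity transporter GLUT3, had 1.19 to 1.47 RPKM in no-dox, 1.16 to 6.04 RPKM in plus-dox and 1.63 to 3.06 RPKM in off-dox tumors, so that it stayed far below Slc2a1. Mlxip, a glucose-sensing transcription factor, had 6.54 ± 1.07 RPKM in no-dox, 7.85 ± 0.33 RPKM in plus-dox and 8.34 ± 0.71 RPKM in off-dox tumors, and differed from no-dox by 0.33 ± 0.10 on the log2 scale in dox-exposed tumors (edgeR, adjusted p = 0.114). Hif1a, the regulator of the hypoxia response, had 29.6 ± 3.0 RPKM in no-dox, 40.1 ± 13.8 RPKM in plus-dox and 37.1 ± 8.6 RPKM in off-dox tumors, and did not pass.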

How the data were processed

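RNA from 12 subcutaneous tumors was sequenced by the study as polyA+, unstranded libraries with 50-bp single-end reads. The authors mapped reads to mm9 with TopHat (version 1.4.1) and condensed RefSeq to 1 model per gene. The deposited files hold an expected count per gene, that is, base-wise coverage of unambiguous exons expressed in reads, without normalization. They also hold the authors' RPKM, per kilobase of exon and per total of mapped reads. CASAVA (1.8.2), Bowtie (0.12.8) and bedtools (2.16.2) are also named in the submitters' processing notes.

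Expected counts were rounded to whole numbers and tested with edgeR (version 4.0.16) by its quasi-likelihood test, with TMM normalization, genes with at least 10 summed counts, and a single fit of the 3 groups without covariates. The authors' limits were kept, although they used DESeq2. P-values were adjusted by Benjamini-Hochberg over all genes tested. Log2 CPM used a prior count of 2. Data were simulated for plus-dox against no-dox with 200 of 17420 genes, drawn from those with higher counts, changed by 2 on the log2 scale. By the adjusted p limit alone, 95% of the changed genes were recovered and 12.04% of the genes that passed were false. The members differed by less than 2, so the simulation does not tell how often differences of their size would be found. Replicate libraries differed beyond sampling noise, so none was a copy.

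The members, lists and tests were chosen with earlier results of these data known. Members with an unadjusted p under 0.05 in any comparison, members whose groups did not overlap in dox-exposed against no-dox tumors, and the most abundant member of each isoform family are given tumor by tumor, and the rest by group. Alternatives were RLE normalization, DESeq2 (version 1.42.0), run once with moderated and once with unmoderated fold changes, other filters, fits of the compared groups alone, a replicate block and left-out tumors. Metabolite measurements were not analysed here. The work used R (version 4.3.3) and Python (version 3.11.15). An allele shared by all groups and 1 further gene are not reported here.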

Additional observations from a re-analysis of the deposited data

Results flagged for a closer look

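The levels of 6 members stood apart from the other 3 tumors of their group by Dixon's criterion at 95%, of 99 combinations of gene and group tested, of which chance alone flags about 1 in 20. In off-dox tumor 3, Slc2a1 had 50.12 RPKM against 93.95 to 97.2 RPKM in the other off-dox tumors. In plus-dox tumor 3, Pfkl had 70.4 RPKM against 38.66 to 40.79 RPKM. Tpi1 in no-dox tumor 4 had 427.5 RPKM against 305.3 to 315.5 RPKM. Pgls in off-dox tumor 2 had 31.02 RPKM against 49.46 to 53.1 RPKM. Tkt in no-dox tumor 2 had 110.6 RPKM against 80.75 to 85.56 RPKM, and Taldo1 in off-dox tumor 1 had 105.7 RPKM against 74.25 to 77.57 RPKM in the other off-dox tumors.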

How the results depend on the processing

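No fold change of a named member reversed in any of the settings. Of 380 values for named members under an alternative, 297 kept their side of the adjusted p limit, 59 fell short of it and 24 newly passed it. DESeq2 with moderated fold changes called 90 genes in plus-dox against no-dox (edgeR called 0), 396 in off-dox against no-dox (235 in edgeR) and 4 in off-dox against plus-dox, with 1 member called (Eno2) in each of plus-dox and off-dox against no-dox. Without moderation it called 128, 615 and 6 genes and 509 in dox-exposed tumors. Members called were 1, 2 and 2 in plus-dox, off-dox and dox-exposed against no-dox. In dox-exposed tumors 10 members reached an unadjusted p under 0.05, beside 3947 of 17561 genes. With no filter on counts, 122 genes were called in off-dox and 0 members in dox-exposed tumors; with at least 10 counts in every tumor, 365 genes and 1 member (Eno2) in off-dox and 260 genes in dox-exposed tumors; with off-dox and no-dox tumors alone, 3 genes. Without plus-dox tumor 2 and off-dox tumor 4 together, 472 genes and 2 members were called in off-dox tumors. Members at an unadjusted p under 0.05 were then 1 in off-dox against plus-dox and 10 in dox-exposed tumors. Of all 17329 genes, 642 and 4054 reached that p. The cause of these shifts was not tested.

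Deviations from the group mean did not show a pairing by replicate number. They correlated at a mean r of -0.088 for the same number (12 pairs, -0.449 to 0.566, 2 of them over 0.1). For different numbers the mean r was 0.043 (36 pairs, -0.680 to 0.665, 19 of them over 0.1). With so wide a spread, these correlations cannot exclude a pairing. A replicate block left 0 genes called in off-dox and in dox-exposed tumors, and 0 members in dox-exposed tumors.

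With 1 tumor left out at a time, genes called were 0 to 3 in plus-dox, 0 to 789 in off-dox, 0 to 1 in off-dox against plus-dox and 0 to 498 in dox-exposed tumors, with the highest off-dox and dox-exposed counts without off-dox tumor 1. Members called were 0, 0 to 4, 0 and 0 to 2 in that order. Members at an unadjusted p under 0.05 were 4 to 7, 5 to 9, 0 to 1 and 5 to 9. Of all 17430 to 17502 genes tested, 1556 to 3143, 2689 to 4301, 323 to 858 and 2885 to 4405 reached that p. The members' median log2 difference was -0.09 to 0.12, -0.10 to 0.05, -0.11 to 0.02 and -0.07 to 0.08. Shares of reads in place of RPKM moved 28 of 54 group means of isoform shares.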

Other observations

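Some isoforms best known from other tissues, outside the members, varied widely between tumors. Pklr, the pyruvate kinase of liver and red cells, ranged from 0.403 to 16.7 RPKM over the 12 tumors. Eno3, the muscle enolase, had 11.2 to 139 RPKM and was therefore more abundant than Eno2 in every group on average. Bpgm, which makes 2,3-bisphosphoglycerate, had 43.7 ± 7.1 RPKM in no-dox (SD, n = 4), 25.1 ± 10.3 RPKM in plus-dox and 25.5 ± 15.2 RPKM in off-dox tumors, and the difference over dox-exposed tumors was -0.77 ± 0.31 on the log2 scale (edgeR, adjusted p = 0.188), which did not pass. Bsg, the chaperone of the lactate carriers MCT1 and MCT4, had 346 to 966 RPKM and did not pass either.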
